A study of Mus musculus with 21 samples.

Results

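The 10 genes followed here belong to the inhibitory control of sensory neurons and were measured in mouse dorsal root ganglia, which hold the cell bodies of the sensory neurons of the trunk and limbs. They are the opioid receptor genes Oprm1, Oprd1, Oprk1 and Oprl1, the opioid peptide precursor gene Penk, the cannabinoid receptor gene Cnr1, the GABA-B receptor subunit genes Gabbr1 and Gabbr2, and the alpha-2 adrenergic receptor genes Adra2a and Adra2c. They were taken by name from the deposited gene counts, and all 10 were found among the 24381 genes that both deposited tables list.

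The receptors couple to inhibitory G proteins of the Gi and Go class. In sensory neurons these G proteins are known to close voltage-gated calcium channels, to open potassium channels and to lower cyclic AMP, so that less transmitter is released onto the spinal cord and the neuron fires less readily. This is the textbook basis of pain relief by opioids, cannabinoids, baclofen and clonidine.

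All mice carried a floxed Tmem45b gene, which encodes a transmembrane protein. The conditional knockout mice (cKO, Tmem45b-flox::Mrgprd-cre) also carried a Cre transgene whose expression follows Mrgprd, the marker receptor of a class of nonpeptidergic nociceptors, and the others (flox, Tmem45b-flox) had the floxed gene without Cre. Whole ganglia were sequenced, so a change in the Cre-expressing neurons is diluted by all other cells, and fewer cells of a type cannot be told apart from less RNA per cell. The 21 libraries comprised 4 cKO and 4 flox libraries of a CFA model, 4 cKO and 3 flox untreated libraries named con or ko (the con/ko set), and 3 cKO and 3 flox untreated libraries named LDRG. The labels use the abbreviation CFA alone, which in pain research usually stands for complete Freund's adjuvant, an emulsion that induces inflammation. Ages and doses are not stated in the labels. Genotype was read from the sample titles, because the genotype field names the Cre line for every sample. The con/ko names also hold code letters, F or M and C or L, which the labels do not explain. Library numbers below are those of the titles.

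Total counts ran between 53364389 and 72502294 reads per library, and levels are given as CPM, counts per 1000000 reads of a library size adjusted by TMM, a normalization in edgeR. Tmem45b, the check of the genotype labels, was lower in each untreated cKO library (59.9 to 89.1 CPM) than in each untreated flox library (124 to 179 CPM), but the CFA libraries overlapped, with 61.8 to 108 CPM in cKO and 65.9 to 136 CPM in flox libraries. Which exons are floxed is not given in the labels. For the CFA libraries, directions by genotype below are therefore those of the libraries labelled cKO and flox. Mrgprd, the other check, had a log2 difference, cKO minus flox, of -0.05 (SE 0.14) in untreated and -0.25 (SE 0.13) in CFA libraries. Neither passed the edgeR test. Mrgprd was lower in con/ko than in LDRG (-0.35, edgeR adjusted p = 0.0287) and higher in CFA than in con/ko (0.55, edgeR adjusted p = 0.000896). Xist, the RNA that coats the silenced X chromosome of female cells, was at 283 to 459 CPM in the CFA libraries, 284 to 320.2 CPM in the F-coded and 0 to 0.206 CPM in the M-coded con/ko libraries, and 0.101 to 0.330 CPM in the LDRG libraries, so CFA and sex cannot be told apart between the CFA and LDRG sets. The 4 C-coded con/ko libraries (flox 4 and cKO 4, 5 and 6) stood apart in Hox genes, which are expressed by position along the body axis. Hoxa9 was at 0.456 to 1.09 CPM in them, against 42.6 to 48.8 CPM in the L-coded con/ko, 49.1 to 66.98 CPM in the CFA and 53.6 to 64.2 CPM in the LDRG libraries. Hoxa10 and Hoxc9 split the libraries in the same way, with at most 0.164 CPM in the C-coded libraries; these Hox genes were chosen after their values were seen. Called differences of the 10 genes that use the con/ko set are therefore also given with its 3 L-coded libraries alone, while the genotype tests and the pathway lists use all 7. Whether each library is a different mouse is not stated, so a p-value here reflects the spread between libraries, which may be partly technical.

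Promoter windows are shown for Oprd1, the gene of the 10 called between CFA and LDRG, and for Cnr1, the gene of the 10 with the lowest adjusted p between the untreated sets. Each spans 250 bases before to 50 after the RefSeq transcript start on GRCm38.p6, for Oprd1 chr4:132144437-132144736 on the minus strand and for Cnr1 chr4:33924394-33924693 on the plus strand. Capitals mark the GC box GGGCGG and the E-box CACGTG, searched on both strands.
Oprd1: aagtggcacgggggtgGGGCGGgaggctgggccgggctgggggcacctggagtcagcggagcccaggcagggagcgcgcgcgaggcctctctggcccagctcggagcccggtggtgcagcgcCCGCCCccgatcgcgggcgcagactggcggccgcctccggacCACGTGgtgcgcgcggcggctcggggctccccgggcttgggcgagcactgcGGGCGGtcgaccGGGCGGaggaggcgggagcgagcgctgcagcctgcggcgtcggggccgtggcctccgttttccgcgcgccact
Cnr1: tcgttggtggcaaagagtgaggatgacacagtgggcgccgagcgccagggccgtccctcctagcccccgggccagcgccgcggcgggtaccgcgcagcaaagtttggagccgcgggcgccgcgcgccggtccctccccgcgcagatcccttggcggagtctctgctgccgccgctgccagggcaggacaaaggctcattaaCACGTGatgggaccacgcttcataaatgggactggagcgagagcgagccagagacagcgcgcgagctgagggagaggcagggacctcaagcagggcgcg
The Oprd1 window held 4 GC boxes and 1 E-box in 79.3% G and C, and the Cnr1 window held 1 E-box in 69.0% G and C. Of the 32851 RefSeq promoter windows of this length, 35.7% held a GC box and 7.2% an E-box. The cyclic AMP response element TGACGTCA and the AP-1 motif TGANTCA, in 1.8% and 7.8% of all windows, were in neither. A window was at hand for 8 of the 10 genes; a match is a run of letters and does not show binding.

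The GABA-B subunits were the most abundant of the 10 transcripts per length, and the kappa and mu opioid receptors the least. Levels between genes were compared as CPM per kb of exon (GENCODE vM21, mm10). Gabbr1, whose protein binds GABA, had a median of 83.4 CPM per kb over the 21 libraries, and Gabbr2, whose protein carries the receptor to the membrane and contacts the G protein, 39.9 CPM per kb. Gabbr1 exceeded Gabbr2 in all 21 libraries, by 1.77 to 2.31 times (median 2.08). Cnr1, the main neuronal cannabinoid receptor, followed at 10.9 CPM per kb, and the nociceptin receptor Oprl1 at 7.51 CPM per kb. The delta opioid receptor Oprd1 (4.18 CPM per kb) and the alpha-2C receptor Adra2c (3.64 CPM per kb) were neighbours that overlapped: Oprd1 was the higher in 14 of the 21 libraries. Penk, the precursor of the enkephalins, had 2.48 CPM per kb and the alpha-2A receptor Adra2a 1.36 CPM per kb. The kappa receptor Oprk1 (0.553 CPM per kb) and the mu receptor Oprm1 (0.455 CPM per kb) did not differ beyond their spread, Oprk1 being the higher in 8 libraries. Oprd1 thus had a higher level per length than Oprm1 in each library, 2.11 to 5.98 against 0.210 to 0.809 CPM per kb.

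**Figure D1:**
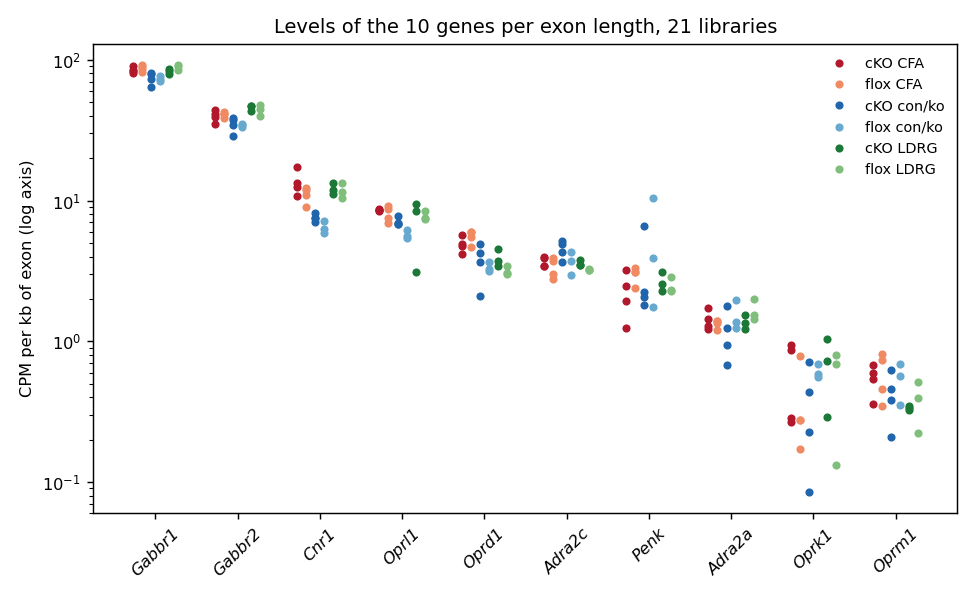
Level of each gene in CPM per kb of exon (log axis), 1 point per library, coloured by group, genes ordered by their median. Gabbr1 (64.0 to 91.3 CPM per kb) lies above all others, and Oprk1 and Oprm1 overlap at the bottom.

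The genes lie apart in the genome (mm10): Oprm1 on chr10:6758506-7038198, Oprd1 on chr4:132110726-132144486, Oprk1 on chr1:5588466-5606131, Oprl1 on chr2:181715016-181720985 and Penk on chr4:4133531-4138819. Cnr1 is on chr4:33924593-33948831, Gabbr1 on chr17:37045966-37075067, Gabbr2 on chr4:46662305-46991873, Adra2a on chr19:54044151-54048982 and Adra2c on chr5:35278319-35281763. Oprd1, Penk and Gabbr2 are on the minus strand and the others on the plus strand. Counts are totals over whole genes. Oprm1 shares 96 exon bases with Ipcef1 and Penk 157 with A830012C17Rik, both on the opposite strand, and the sources used here do not say whether counting used strand, so reads in these stretches are uncertain.

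The spread between libraries of 1 group differed widely among the genes. The within-group SD of log2 CPM was 0.99 for Oprk1, 0.66 for Penk, 0.50 for Oprm1, 0.34 for Oprl1, 0.33 for Adra2a, 0.28 for Oprd1, 0.19 for both Cnr1 and Adra2c, 0.12 for Gabbr2 and 0.09 for Gabbr1. The median gene above 1 CPM had 0.14 (SD, log2). Differences in Oprk1, Penk and Oprm1 are therefore the least well fixed. The SD also depends on level, so each gene was ranked among genes within 0.5 log2 of its own level. The percent of these with a smaller SD was 94.9 for Oprl1, 94.2 for Oprk1, 92.5 for Penk, 89.5 for Cnr1 and 88.5 for Oprd1. It was 82.4 for Oprm1, 80.9 for Adra2a, 68.9 for Gabbr2, 64.6 for Adra2c and 29.6 for Gabbr1.

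**Figure D2:**
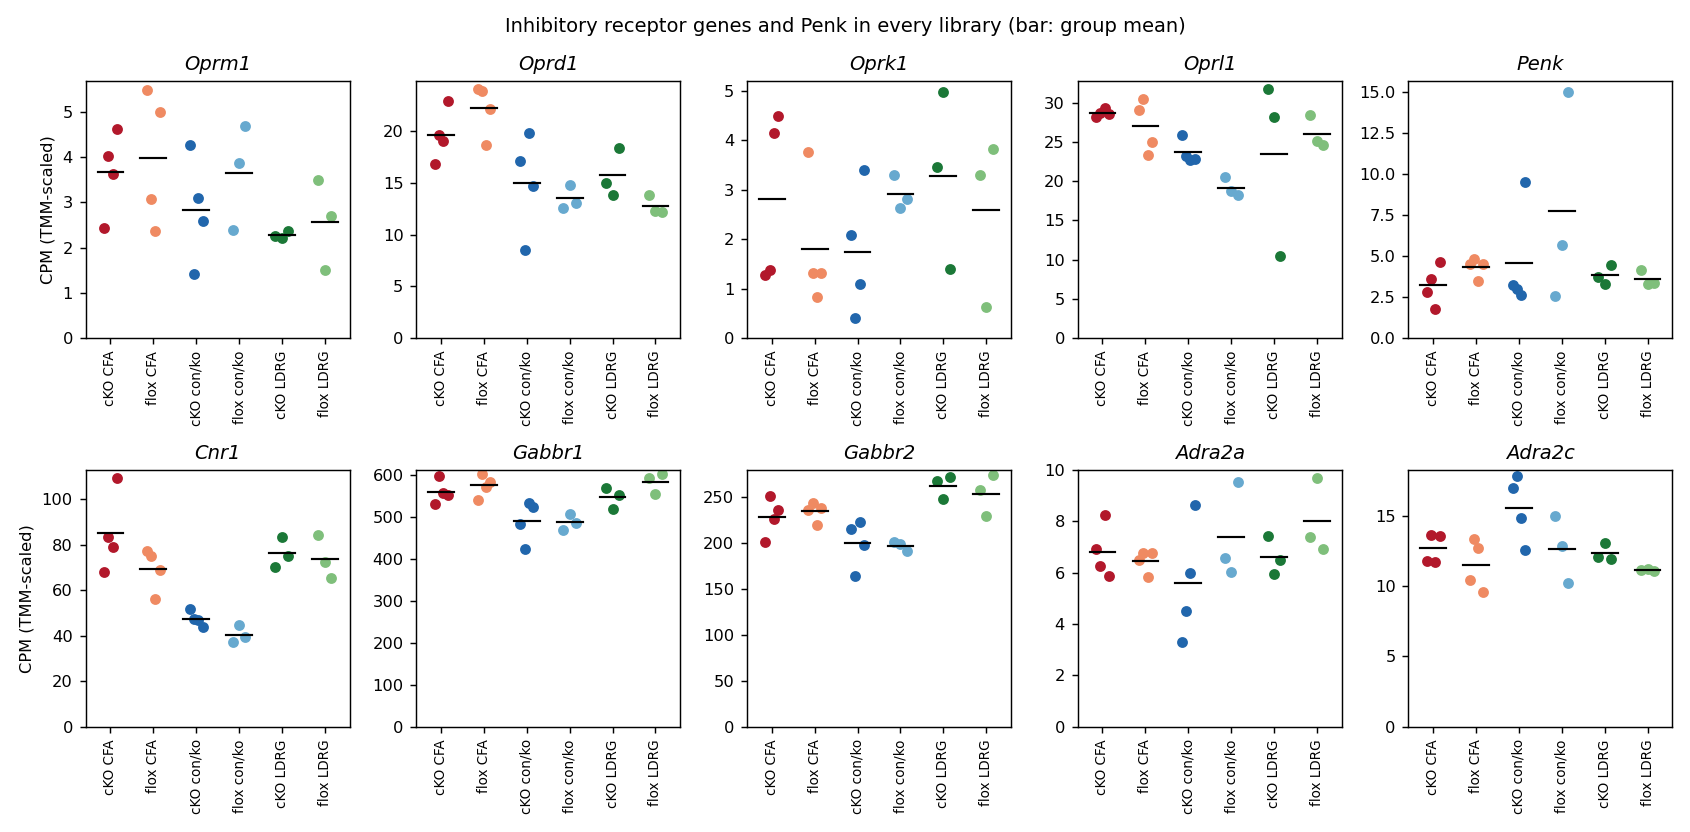
CPM of each gene in the 21 libraries, by group, with the group mean as a bar. Cnr1 is low in the con/ko libraries (37.1 to 51.6 CPM), Oprd1 is high in the CFA libraries (16.8 to 24.1 CPM), Oprl1 has 1 low LDRG library (10.5 CPM), and Penk has high con/ko libraries (up to 15.01 CPM).

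The first comparison asked whether Tmem45b deletion in Mrgprd-lineage neurons goes with a change of these receptors in untreated ganglia. None of the 10 genes passed the test (edgeR quasi-likelihood F test with Benjamini-Hochberg adjustment over all genes, name set as a covariate). Among the con/ko libraries, most cKO ones were C-coded and most flox ones L-coded, and this fit had no term for the codes. Genotype differences in that set therefore cannot be fully told apart from differences between C and L. Of 16311 genes tested, 1 was called, 0.00613%, and this was Tmem45b itself, with a log2 difference of -1.02 (SE 0.07). At an unadjusted p under 0.05 stood 1113 genes, and DESeq2 called 35 genes, none of them among the 10. The lowest p among the 10 was that of Adra2c, with a log2 difference of 0.22 (95% interval 0.01 to 0.44, adjusted p = 0.714 by edgeR).

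Adra2c had 12.0, 13.03 and 11.9 CPM in cKO LDRG libraries, against 11.1, 11.2 and 11.1 CPM in flox LDRG libraries. In the con/ko set it had 17.0, 17.8, 14.8 and 12.5 CPM in cKO (4 to 7) and 14.96, 12.8 and 10.2 CPM in flox libraries (4 to 6). The genotypes did not overlap in the LDRG set and did in the con/ko set. Groups that do not overlap were common: 10.5% of the genes above 1 CPM in the LDRG set, 7.6% in the con/ko set and 3.6% in the CFA set.

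Oprd1 was likewise higher in every cKO LDRG library, with 14.996, 13.8 and 18.3 CPM against 13.8, 12.2 and 12.1 CPM in flox LDRG libraries. In the con/ko set the order was mixed, with 17.1, 8.48, 19.8 and 14.6 CPM in cKO and 12.6, 14.8 and 13.1 CPM in flox libraries. Over both sets the difference was 0.22 (interval -0.12 to 0.56). Oprl1 did not overlap in the con/ko set, where it had 26.0, 23.3, 22.8 and 22.8 CPM in cKO and 20.5, 18.8 and 18.3 CPM in flox libraries. In that set alone its difference was 0.30 (edgeR adjusted p = 0.5596, where 40 genes were called).

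The intervals bound what these 13 libraries allow. They were narrow for Gabbr1 (-0.04, interval -0.16 to 0.07), Gabbr2 (0.03, -0.12 to 0.17) and Cnr1 (0.14, -0.02 to 0.30). For Oprm1 the difference was -0.28 (interval -0.84 to 0.28), for Adra2a -0.35 (-0.77 to 0.08), for Penk -0.38 (-1.25 to 0.49), for Oprk1 -0.24 (-1.34 to 0.85) and for Oprl1 0.08 (-0.35 to 0.52). In these 5 genes the intervals also hold changes of more than 0.5 in at least 1 direction.

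Among the CFA libraries 0 of the 10 genes passed the test between genotypes, and 0 of 16116 genes did (0.0%); 799 had an unadjusted p under 0.05 and DESeq2 called 18, none of the 10. Cnr1 had 67.9, 83.5, 79.2 and 109 CPM in cKO and 77.1, 75.0, 56.3 and 69.0 CPM in flox CFA libraries, a difference of 0.30 (SE 0.15, interval -0.03 to 0.64), or 0.15 without cKO CFA 4. The genotypes overlapped, 1 cKO library being the highest. Penk had 2.81, 3.60, 1.79 and 4.65 CPM in cKO and 4.50, 4.81, 3.47 and 4.53 CPM in flox CFA libraries (-0.42, SE 0.26), and the difference was -0.23 without cKO CFA 3 and -0.66 without cKO CFA 4. None of the 10 genes separated the CFA genotypes without overlap.

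**Figure D3:**
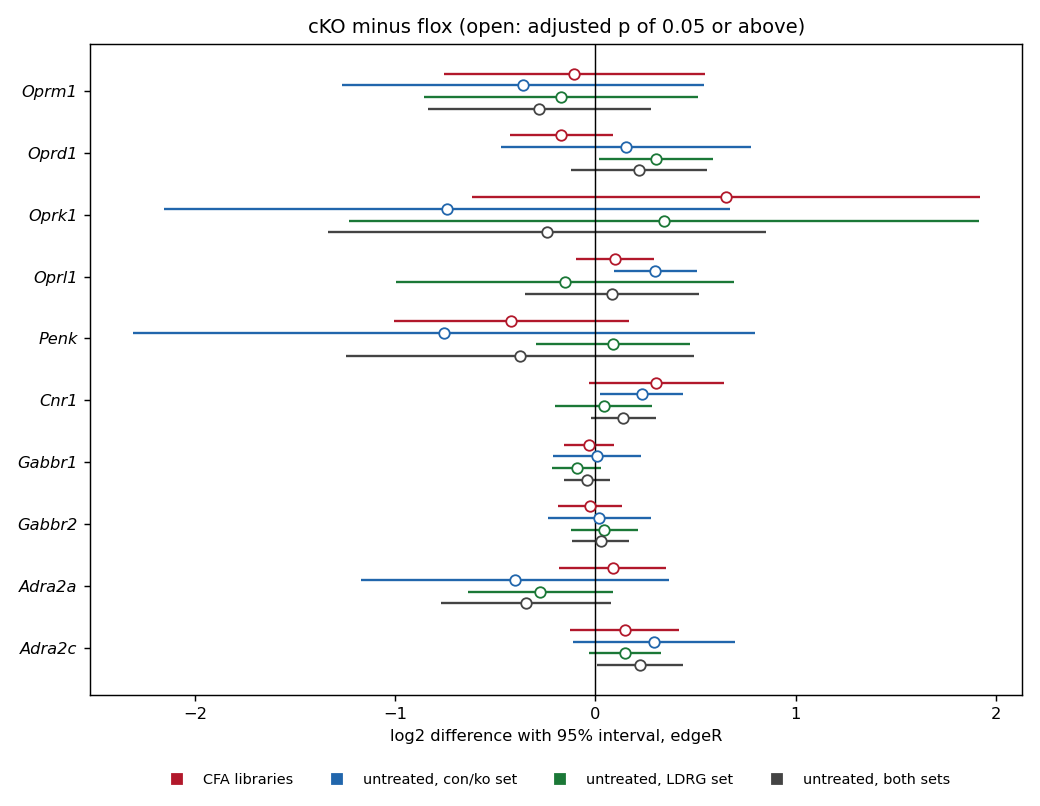
Log2 difference, cKO minus flox, with its 95% interval, for each gene in the CFA libraries, in each untreated set alone and in both untreated sets. All points are open (adjusted p of 0.05 or above); the intervals are narrowest for Gabbr1 and Gabbr2 and widest for Oprk1 and Penk.

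The difference between these genotype effects was tested as an interaction of genotype and CFA in 1 fit of all 21 libraries. It called 0 of the 10 genes and 0 of 16928 genes in edgeR (0.0%), where 707 had an unadjusted p under 0.05 and DESeq2 called 8, none of the 10. Oprd1 had the lowest p of the 10, with an interaction of -0.41 (SE 0.23, unadjusted p = 0.0907, adjusted p = 0.99997 by edgeR). In fits of their own, cKO minus flox was -0.17 in CFA and 0.22 in untreated libraries.

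The CFA libraries were compared with each untreated set, averaged over genotype, in the same fit of 21 libraries. The 3 comparisons between sets share libraries in pairs, so their results are not independent, and they are given side by side. Against the LDRG set, deposited in the same table, 1 of the 10 genes passed the test, where 11.9% of all 16928 genes did. Against the con/ko set 5 of the 10 passed, all higher in CFA, where 52.1% of all genes passed and 24.1% as higher. Between the untreated sets 4 of the 10 passed, 1 higher and 3 lower in con/ko, where 48.7% of all genes passed, 25.7% as higher and 23.0% as lower. Without regard to direction, the 10 genes are thus called about as often as all genes are.

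**Figure D4:**
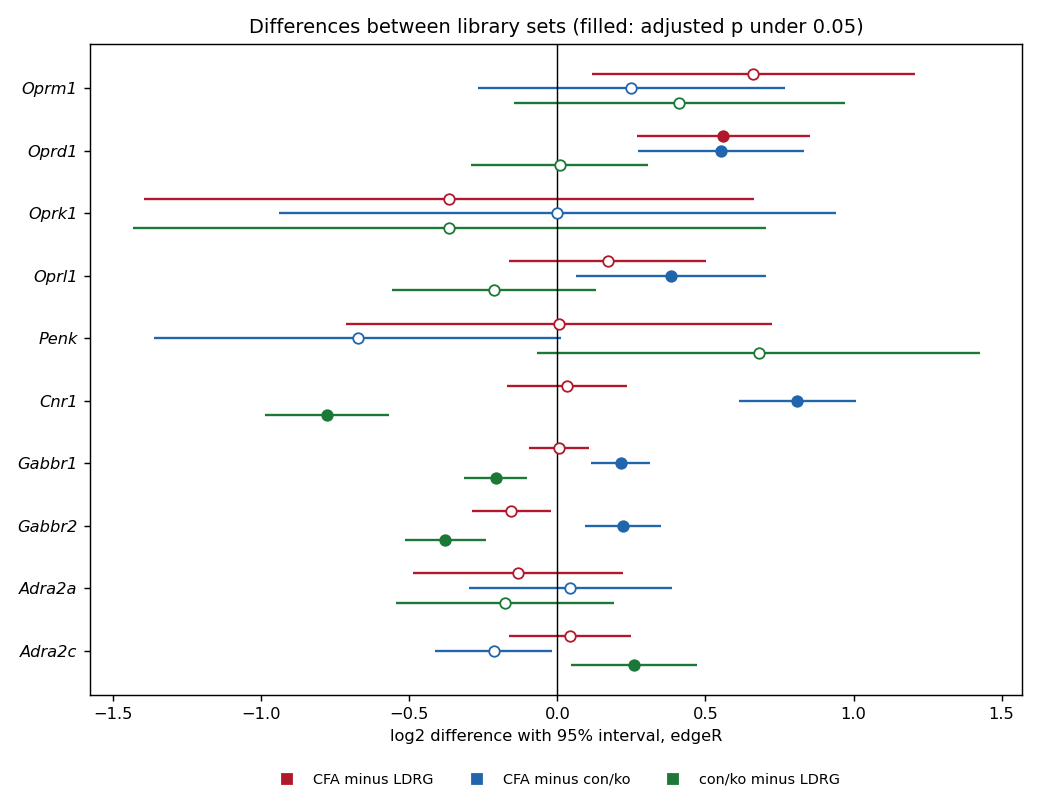
Log2 differences between library sets, averaged over genotype, with 95% intervals; filled points have an adjusted p under 0.05. Oprd1 is higher in CFA than in both untreated sets by about the same amount, and Cnr1, Gabbr1 and Gabbr2 are lower in con/ko than in both other sets.

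Oprd1, the delta opioid receptor that binds enkephalins, was higher in CFA ganglia than in either untreated set. It had 16.8, 19.6, 19.1 and 22.9 CPM in cKO CFA and 24.1, 23.9, 18.7 and 22.2 CPM in flox CFA libraries. The con/ko and LDRG values given above lay at 8.48 to 19.8 and 12.1 to 18.3 CPM. All 8 CFA libraries exceeded 5 of the 6 LDRG libraries, the exception being cKO LDRG 3. The log2 difference was 0.56 against LDRG (SE 0.14, 1.47-fold, edgeR adjusted p = 0.0138) and 0.55 against con/ko (SE 0.13, adjusted p = 0.00207), while con/ko and LDRG differed by 0.01 (interval -0.29 to 0.31).

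The difference was called among flox and not among cKO libraries; the interaction given above, which tests whether these differ, did not pass. CFA minus LDRG was 0.80 among flox libraries (adjusted p = 0.0295, 3.74% of all genes called) and 0.32 among cKO libraries (adjusted p = 0.451, 1.25% called). CFA minus con/ko was 0.72 among flox (adjusted p = 0.00947, 34.4% called) and 0.38 among cKO libraries (adjusted p = 0.0995, 39.3% called). With the 3 L-coded con/ko libraries only, CFA minus con/ko was 0.54 (adjusted p = 0.00219). With the 4 F-coded libraries only, which share high Xist with the CFA libraries, it was 0.66 (adjusted p = 0.00223). Most of the F-coded libraries were C-coded, with Hox levels far below those of CFA. Most of the L-coded libraries were M-coded, with Xist far below that of CFA. Neither subset as a whole therefore matched the CFA libraries in both Xist and Hox levels, and a comparison matched in both was not tested. No left-out library ended the call against LDRG or that against con/ko.

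Oprm1, the receptor of morphine, pointed the same way without passing the test. It had 2.43, 4.01, 3.63 and 4.62 CPM in cKO CFA and 5.48, 3.08, 2.37 and 5.004 CPM in flox CFA libraries, against 2.26, 2.21 and 2.36 CPM in cKO LDRG and 3.496, 1.505 and 2.69 CPM in flox LDRG libraries. The sets overlapped, the highest values being those of flox CFA 1 and 4. The log2 difference was 0.66 (SE 0.26, interval 0.12 to 1.21, edgeR adjusted p = 0.103). In con/ko it had 4.26, 1.42, 3.09 and 2.58 CPM in cKO and 2.39, 3.87 and 4.69 CPM in flox libraries, and CFA minus con/ko was 0.25 (adjusted p = 0.416).

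Oprk1, the kappa receptor of dynorphins, took low and high values in most groups. It had 1.26, 1.37, 4.15 and 4.50 CPM in cKO CFA and 3.77, 1.31, 0.822 and 1.32 CPM in flox CFA libraries. It had 2.09, 0.404, 1.09 and 3.41 CPM in cKO con/ko and 3.30, 2.64 and 2.81 CPM in flox con/ko libraries. In LDRG libraries it had 3.46, 4.97 and 1.39 CPM in cKO and 3.30, 0.631 and 3.82 CPM in flox. Values of 1.39 CPM or less and of 2.09 CPM or more stood side by side in 5 of the 6 groups, flox con/ko being the exception, and counts ran from 27 to 350 reads, so counting error alone is small beside this range. No comparison between sets passed (-0.37 for CFA minus LDRG, SE 0.49, and 0.00 for CFA minus con/ko, SE 0.45).

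Oprl1, the receptor of nociceptin, was nearly level in the CFA libraries, with 28.2, 28.8, 29.3 and 28.6 CPM in cKO and 29.1, 30.5, 23.4 and 25.0 CPM in flox. In LDRG libraries it had 31.7, 28.2 and 10.5 CPM in cKO and 28.4, 25.2 and 24.6 CPM in flox. The cKO LDRG library 3 stood apart at 10.5 CPM (634 reads). CFA minus LDRG was 0.17 with it and -0.01 without it; con/ko minus LDRG was -0.21 (edgeR adjusted p = 0.294) with it and -0.39 (adjusted p = 0.000218) without it. The untreated genotype difference was 0.08 with it and 0.25 without it. CFA minus con/ko was 0.38 (SE 0.15, adjusted p = 0.0431), a call that ended when any of 12 of the 15 libraries was left out (highest adjusted p = 0.0842), the exceptions being flox CFA 3 and 4 and cKO con/ko 4, and with L-coded con/ko libraries only (0.44, adjusted p = 0.1601).

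Penk split the con/ko set along the C and L codes. It had 3.23, 2.96, 2.60 and 9.51 CPM in cKO con/ko libraries 4 to 7 and 2.56, 5.66 and 15.01 CPM in flox con/ko libraries 4 to 6. The L-coded libraries flox 5, flox 6 and cKO 7 (5.66 to 15.01 CPM) were all above the C-coded ones (2.56 to 3.23 CPM). The log2 difference, C minus L, was -1.48 (SE 0.44), which edgeR did not call (adjusted p = 0.377, 0.0834% of all genes called), and DESeq2 did (-1.49, adjusted p = 0.0216, 579 genes called). Without cKO con/ko 6 the edgeR value was -0.84. No other of the 10 genes passed the test of C against L.

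Elsewhere Penk had 3.72, 3.31 and 4.47 CPM in cKO LDRG and 4.15, 3.28 and 3.38 CPM in flox LDRG libraries, beside the CFA values given above (1.79 to 4.81 CPM). CFA minus LDRG was 0.00 (SE 0.34). With L-coded con/ko libraries only, Penk was lower in CFA than in con/ko (-1.41, edgeR adjusted p = 0.000837, 41.5% of all genes called) and higher in con/ko than in LDRG (1.41, adjusted p = 0.00127, 39.5% called). With all 7 libraries the values were -0.67 (adjusted p = 0.0933) and 0.68 (adjusted p = 0.124), and without flox con/ko 4 they passed (-0.88, adjusted p = 0.0205, and 0.89, adjusted p = 0.0312). Without flox con/ko 6 they were -0.21 and 0.22, and without cKO con/ko 7 they were -0.35 and 0.36, none of them called.

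Markers of macrophages were highest in the con/ko libraries with the highest Penk, but between sets they did not follow Penk. The summed CPM of the 5 markers Cd68, Csf1r, Cx3cr1, Adgre1 and Lyz2, all detected in every library, was 605 in cKO con/ko 7 and 460.5 in flox con/ko 6, the libraries with the highest Penk, and 212.5 in flox con/ko 5. It was 164 to 192 in the C-coded con/ko libraries, 83.9 to 125 in CFA and 53.1 to 66.2 in LDRG libraries. Penk itself was lower in the C-coded con/ko libraries (2.56 to 3.23 CPM) than in LDRG libraries (at least 3.28 CPM). Over the 21 libraries, the deviations of Penk from its group means and those of the macrophage sum had Pearson's r = 0.868, as a description. With the same sum, r was 0.660 for Adra2a and -0.716 for Adra2c, and between -0.159 (Oprl1) and 0.297 (Oprk1) for the other genes. Flox con/ko 6 and cKO con/ko 7 deviated most in Penk, and the r of Penk was not computed without them. The part of these cells in the Penk values was not tested.

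**Figure D5:**
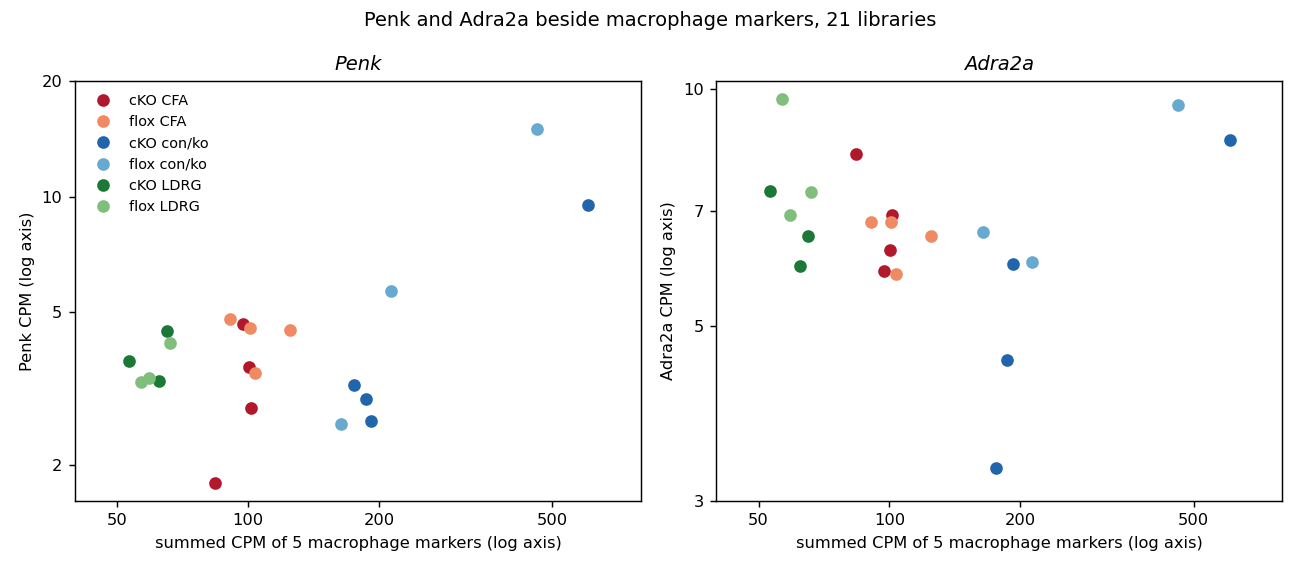
CPM of Penk and of Adra2a against the summed CPM of 5 macrophage markers in each of the 21 libraries (both axes log), coloured by group. The con/ko libraries cKO 7 and flox 6 (605 and 460.5 summed CPM) have the highest Penk and are among the highest in Adra2a, while LDRG libraries reach similar Adra2a levels at 53.1 to 66.2 summed CPM.

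Cnr1 had the largest called difference of the 10 between untreated sets when all 7 con/ko libraries were used. It had 51.6, 47.2, 47.0 and 44.0 CPM in cKO con/ko and 37.1, 44.8 and 39.3 CPM in flox con/ko libraries, against 70.3, 83.4 and 75.0 CPM in cKO LDRG and 84.2, 72.4 and 65.2 CPM in flox LDRG libraries. All 7 con/ko libraries lay below all CFA and LDRG libraries. Con/ko minus LDRG was -0.78 (SE 0.10, edgeR adjusted p = 6.05e-06) and CFA minus con/ko 0.81 (SE 0.09, 1.75-fold, adjusted p = 1.88e-06), while CFA minus LDRG was 0.03 (interval -0.17 to 0.23). With L-coded con/ko libraries only the values were -0.80 and 0.83, both called.

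The GABA-B subunits were also lower in con/ko ganglia. Gabbr1 had 482, 423, 532 and 524 CPM in cKO con/ko and 468, 507 and 484 CPM in flox con/ko libraries, against 569, 519 and 551 CPM in cKO LDRG and 592, 554 and 602 CPM in flox LDRG libraries. Gabbr2 had 215, 164, 222 and 198 CPM in cKO con/ko and 201, 198 and 191 CPM in flox con/ko libraries, against 268, 247 and 272 CPM in cKO LDRG and 258, 229 and 274 CPM in flox LDRG libraries. Gabbr2 did not overlap between these sets, while for Gabbr1 the con/ko libraries cKO 6 and 7 exceeded cKO LDRG 2. Con/ko minus LDRG was -0.21 for Gabbr1 (SE 0.05, edgeR adjusted p = 0.00220) and -0.38 for Gabbr2 (SE 0.07, adjusted p = 0.000124). With L-coded con/ko libraries only the values were -0.15 (adjusted p = 0.0357) and -0.40 (adjusted p = 0.000614).

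The CFA libraries differed from LDRG by less than the spread between libraries for Gabbr1 and lay between the untreated sets for Gabbr2. Gabbr1 had 529.6, 596, 556 and 551 CPM in cKO CFA and 541, 603, 571 and 583 CPM in flox CFA libraries, and CFA minus LDRG was 0.00 (interval -0.10 to 0.11). Gabbr2 had 201, 251, 226 and 236 CPM in cKO CFA and 236, 244, 220.1 and 239 CPM in flox CFA libraries, and CFA minus LDRG was -0.16 (SE 0.06, edgeR adjusted p = 0.115). Against con/ko both were higher in CFA, Gabbr1 by 0.21 (SE 0.05, adjusted p = 0.000966) and Gabbr2 by 0.22 (SE 0.06, adjusted p = 0.00533), and both calls remained with L-coded con/ko libraries only (0.15 and 0.24).

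Some neuron marker sums were lower in con/ko ganglia, as these 3 genes were, and others overlapped between all sets. The summed CPM of 8 general neuron markers was 7236 to 8605 in CFA, 6085 to 7459 in con/ko and 8117 to 8636 in LDRG libraries. That of 6 large A-fibre neuron markers was 4411 to 5358 in CFA, 3329 to 4349 in con/ko and 5069.8 to 5776 in LDRG libraries, and that of 5 peptidergic nociceptor markers 1605 to 2103 in CFA, 1450.1 to 1997 in con/ko and 2268 to 2696 in LDRG libraries. That of 5 nonpeptidergic nociceptor markers was 624 to 817 in CFA, 582 to 807 in con/ko and 702 to 816 in LDRG libraries. That of 4 C-low-threshold mechanoreceptor markers was 103 to 151 in CFA, 110 to 215 in con/ko and 107 to 174 in LDRG libraries. That of 5 itch neuron markers was 44.5 to 71.6 in CFA, 46.6 to 75.1 in con/ko and 49.5 to 96.8 in LDRG libraries. Nefh, at 2303 to 4553 CPM, weighed most in the A-fibre sum. Of these 6 markers, 4 were called lower and 0 higher in con/ko than in LDRG. Against con/ko, 4 were called higher and 1 lower in CFA. Pvalb had a median of 91.9 CPM in con/ko, 72.2 in CFA and 79.9 in LDRG. Of the 5 itch markers, 2 were called higher and 1 lower in con/ko than in LDRG. Nppb had 7.46 to 10.9 CPM in con/ko, 3.05 to 5.14 in CFA and 3.47 to 5.68 in LDRG. Red blood cell markers, 5 globin and erythroid genes, summed to 207 to 620.2 CPM in CFA, 1588 to 4317 CPM in con/ko and 33.7 to 53.8 CPM in LDRG libraries. The part of such shifts in the receptor values was not tested.

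The alpha-2 receptor genes, whose proteins respond to noradrenaline and clonidine, showed small differences. Adra2c was higher in con/ko than in LDRG libraries by 0.26 (SE 0.10, edgeR adjusted p = 0.0419), a call that ended when any of 9 of 13 libraries was left out (highest adjusted p = 0.136), the exceptions being cKO LDRG 2, flox con/ko 6 and cKO con/ko 6 and 7, and with L-coded libraries only (0.03, adjusted p = 0.843). In the CFA libraries it had 11.8, 13.6, 11.7 and 13.5 CPM in cKO and 10.4, 13.4, 12.7 and 9.57 CPM in flox. CFA minus con/ko was -0.22 (edgeR adjusted p = 0.0624), which passed without flox CFA 2 or 3, flox con/ko 6 or cKO con/ko 7 (-0.28 to -0.24). It also passed with F-coded con/ko libraries only (-0.36, adjusted p = 0.00269, 48.4% of all genes called). With L-coded con/ko libraries only, the sign of this difference turned.

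Adra2a had 6.91, 6.24, 8.26 and 5.87 CPM in cKO CFA and 6.50, 6.77, 5.83 and 6.77 CPM in flox CFA libraries, and 7.42, 5.95 and 6.51 CPM in cKO LDRG and 7.40, 9.69 and 6.92 CPM in flox LDRG libraries. In con/ko it had 3.30, 4.52, 5.997 and 8.62 CPM in cKO and 6.59, 6.03 and 9.55 CPM in flox libraries, the highest again being cKO 7 and flox 6. No comparison between whole sets passed. With F-coded con/ko libraries only, CFA minus con/ko was 0.42 (edgeR adjusted p = 0.0101, 48.4% of all genes called). With L-coded ones only, its sign was the opposite. Within the con/ko set, F minus M was -0.68 for Adra2a (SE 0.23, unadjusted p = 0.0266) and 0.27 for Adra2c (SE 0.10, unadjusted p = 0.0447), both with an adjusted p of 0.966; 0 of the 10 genes passed this test, where 0.0298% of all genes did.

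The genes whose deviations from the group means most closely followed those of the 10 were found among 14224 genes above 1 CPM over the 21 libraries, as a description. Whether libraries deviated together through depth, RNA quality or cell makeup was not tested. Oprd1 was followed by Kif5a, a neuronal kinesin gene (r = 0.929), Gabbr2 by the potassium channel gene Kcnh1 (r = 0.953), Gabbr1 by Esyt1, an extended synaptotagmin gene (r = 0.946), and Oprm1 by the GABA-A receptor subunit gene Gabrb2 (r = 0.908). Among the 10, Oprd1 and Gabbr2 had r = 0.810, Gabbr1 and Gabbr2 0.769 and Oprm1 and Oprd1 0.692. The library cKO con/ko 5 had the lowest level of all 21 in Oprm1, Oprd1, Oprk1, Gabbr1 and Gabbr2, and r for Oprd1 and Kif5a was 0.789 without it and cKO con/ko 6. The A-fibre sum, in which Nefh weighed most, had r = 0.737 with Oprd1, 0.700 with Gabbr1 and 0.708 with Gabbr2. The general neuron sum had r = -0.044, 0.026 and -0.143 with these genes, in the same order, and the fibroblast sum r = -0.540, -0.633 and -0.347.

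Cnr1 was followed by Pcsk1, the gene of a prohormone convertase that cleaves neuropeptide precursors (r = 0.925), with 123 to 201 CPM of Pcsk1 in CFA, 81.5 to 111 CPM in con/ko and 119.5 to 155 CPM in LDRG libraries. Penk was followed by Cd33, a sialic acid receptor gene of myeloid cells (r = 0.904), which was highest in cKO con/ko 7 (25.3 CPM) and flox con/ko 6 (21.2 CPM). Adra2c was followed by Fam163b (r = 0.866). Oprk1 was followed least closely, by the oxygen-sensing hydroxylase gene Egln3 (r = 0.791).

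Oprl1 was followed by Arf2, an ADP-ribosylation factor gene, and by Zfyve27, the protrudin gene (r = 0.934 each). Arf2 had 1.70 CPM in cKO LDRG 3, the library with low Oprl1, against 22.4 to 32.2 CPM in the other 20. Without cKO LDRG 3 and 1, r was 0.671 for Arf2 and 0.647 for Zfyve27. In that library 8 of 11772 genes above 5 CPM stood under the level of every other library by more than 2-fold, against 1 to 9 genes in the other libraries.

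The other parts of the pathway were described by 11 gene lists. Between genotypes and in the interaction 0 genes of these lists passed the edgeR test. Between CFA and LDRG, 12 of the 82 list genes tested passed (14.6%, against 11.9% of all genes), 6 higher and 6 lower in CFA. Of the 5 inhibitory G protein alpha subunits, Gnai1 rose (0.28, SE 0.07) and Gnaz (-0.26, SE 0.04) and Gnao1 (-0.23, SE 0.05) fell, with a list median of -0.07 against -0.00 over all genes. Of the 4 auxiliary subunits of GABA-B receptors, Kctd12b rose (0.71, SE 0.14), and of 7 genes of GABA synthesis and transport the transporter gene Slc6a13 rose (1.34, SE 0.15). Of 8 endocannabinoid genes Cnrip1, encoding a protein that binds the cannabinoid receptor (-0.22), and the hydrolase gene Abhd6 (-0.18) fell.

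Of 7 adenylyl cyclases Adcy1 rose in CFA relative to LDRG (0.41, SE 0.07). Of 7 genes of peptide processing, Mme, encoding the enkephalin-degrading enzyme neprilysin, rose (0.71, SE 0.19), and the endothelin-converting enzyme gene Ece1 fell (-0.19). Rgs7, a regulator of Go signalling, was the only called gene of 11 that regulate receptors (-0.19). Of 22 other Gi-coupled receptor genes tested, the somatostatin receptor Sstr4 rose (0.95, SE 0.23), at 1.004 CPM in CFA against 0.532 CPM in LDRG libraries. No potassium channel, calcium channel or other opioid peptide gene of the lists passed. Rose and fell here name a direction relative to LDRG, a comparison in which CFA and sex cannot be told apart. The untreated con/ko set differed from LDRG in the same direction for Mme, Sstr4, Rgs7, Cnrip1, Abhd6 and Slc6a13, as given below. For Gnai1 it differed in the opposite direction. The direction for Gnaz, Gnao1, Kctd12b, Adcy1 and Ece1 is not reported here gene by gene. As a list, 4 of the 5 G protein subunits were called lower in con/ko than in LDRG, so their fall in CFA cannot be read as particular to CFA. Slc6a13 is known from leptomeningeal cells; the summed CPM of 7 fibroblast markers was 1038 to 1489 in CFA, 1446 to 2445 in con/ko and 590.2 to 823 in LDRG libraries, and its part was not tested.

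The con/ko set differed from both other sets in about the share of list genes that all genes gave. Between CFA and con/ko 44 of 82 list genes passed (53.7%, against 52.1% of all genes), 28 of them higher in CFA, and between con/ko and LDRG 40 of 82 passed (48.8%, against 48.7%), 16 higher and 24 lower in con/ko. All 4 calcium channel genes were lower in con/ko than in LDRG and all 4 were higher in CFA than in con/ko, with list medians of -0.35 and 0.37 against 0.02 and -0.04 over all genes. Cacna2d1, encoding the channel subunit bound by gabapentin, averaged 416 ± 82.8 CPM in CFA (SD, n = 8), 243 ± 43.8 CPM in con/ko (n = 7) and 390.1 ± 19.99 CPM in LDRG libraries (n = 6). Of the 5 G protein subunits 4 were lower in con/ko than in LDRG, among them Gnai1 (-0.51, SE 0.07), and 0 were higher; over all genes 23.0% were called lower and 25.7% higher.

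Other lists went both ways between con/ko and LDRG. Of the 4 GABA-B auxiliary subunits Kctd8 was lower (-0.53, SE 0.04) and Kctd12 higher (0.91, SE 0.23) in con/ko. Of the 22 other Gi-coupled receptors 6 were lower, among them the serotonin receptor Htr1b (-0.70, SE 0.08), and 4 were higher, among them Sstr4 (1.01, SE 0.24). Of 7 peptide-processing genes the convertases Pcsk1 (-0.55) and Pcsk2 (-0.35) were lower and Mme higher (0.70). Of 7 adenylyl cyclases Adcy2 was lower (-0.54) and 3 were higher, among them Adcy6 (0.38). Of 11 genes that regulate receptors 3 were lower, among them Rgs7 (-0.41), and 2 were higher, among them Grk3 (0.48). Of 7 genes of GABA synthesis and transport 4 were higher, among them Slc6a13 (2.14, SE 0.16), and 0 were lower. Of 8 endocannabinoid genes 3 were lower, Abhd6 (-0.26), Cnrip1 (-0.24) and Dagla (-0.24), and 0 were higher.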

How the data were processed

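Members, pathway lists and marker lists were chosen with earlier results of these data known. The named genes are the 10 members, up to 3 called genes of the smallest p per pathway list and comparison, the 2 most similar genes per member, and Tmem45b and Mrgprd as checks; genes named beyond these were picked with their values in view. The gene most similar to Adra2a and some list genes are not reported here.

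The authors deposited raw read counts per gene in tables of 14 and 7 libraries. Per the labels' protocols, RNA was extracted with TRIzol, selected with oligo(dT) and read as paired ends. Per the submitters' processing notes, fastp 0.23.2, BWA 2.2.1, SAMtools 1.14 and DESeq2 1.40.2 were used with mm10; for the counting step, a tool was not given in the sources used here. Tests on the 24381 shared genes used edgeR 4.0.16 under R 4.3.3 (TMM; filterByExpr with a minimum count of 10 and total of 15; quasi-likelihood F tests; Benjamini-Hochberg adjustment; called at adjusted p under 0.05). Set comparisons came from 1 fit of 6 groups. The fits were tested on simulated data with the same spread between libraries for every gene. This does not cover genes of wider spread, such as Oprk1 and Penk. Likeness used log2(CPM + 0.1). Replicate pairs differed by more than sampling noise (chi-square per degree of freedom 26.95 to 150.4 over 27 pairs). Exon lengths came from GENCODE vM21, which held 96.7% of the genes. Alternatives were DESeq2 1.42.0, scaling by RLE, testing without a filter, single sets, genotypes and codes, a replicate block, and leaving out each library.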

Additional observations from a re-analysis of the deposited data

Results flagged for a closer look

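In 3 of 30 groups of 4 libraries (each of the 10 genes in cKO CFA, flox CFA and cKO con/ko), 1 library lay farther from the others than Dixon's 95% critical value allows; chance gives about 1 in 20. Oprk1 was at 3.77 CPM in flox CFA library 1, against 0.822 to 1.32 CPM in the other flox CFA libraries. Oprl1 was at 26.0 CPM in cKO con/ko library 4, against 22.8 to 23.3 CPM in the other cKO con/ko libraries. Penk was at 9.51 CPM in cKO con/ko library 7, against 2.60 to 3.23 CPM in the other cKO con/ko libraries; library 7 is the L-coded one of these 4 and had the highest macrophage marker sum (605 CPM), whose part was not tested. The low Oprl1 library of the LDRG set lay in a group of 3, which was not examined in this way.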

How the results depend on the processing

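Of 10 called differences, those of Cnr1 and Gabbr2 between con/ko and LDRG and of Cnr1 and Gabbr1 between CFA and con/ko passed under every alternative run; Oprl1 and Adra2c were the least stable, as given above, and no filter ended both calls (adjusted p = 0.0552 for Oprl1, 0.0540 for Adra2c). Among cKO libraries the calls of Oprd1, of Gabbr2 between CFA and con/ko (adjusted p = 0.0723) and of Gabbr1 between con/ko and LDRG (adjusted p = 0.0860) also ended. Genotype comparisons called 0 of the 10 genes under every alternative. Over the whole table, DESeq2 called 35 for genotype untreated (edgeR 1), 18 for genotype in CFA (0), 8 for the interaction (0), 579 for C against L (14, and 9 with no filter) with 1 of the 10 genes, and 149 for F against M (5). The untreated genotype test called 3 genes in the LDRG set, 40 in the con/ko set and 25 there with code letters as terms. CFA against LDRG called 633 genes among flox and 211 among cKO libraries (0 of the 10), and CFA against con/ko 5826 among flox libraries; among cKO libraries 2 of the 10 were called against con/ko (Cnr1 and Gabbr1) and 2 between untreated sets (Cnr1 and Gabbr2; 33.7% of all genes called). Leaving out 1 library gave 1 to 45 genes for genotype untreated (45 without cKO LDRG 1), 0 to 2 in CFA, 0 to 1 for the interaction, 0 to 21 for C against L (0 without flox con/ko 4), 3 to 12 for F against M, 1303 to 2256 for CFA against LDRG (1303 without cKO LDRG 1, 1305 without flox LDRG 2), 8210.0 to 8767 for CFA against con/ko and 7579 to 8309 between untreated sets.

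Same-numbered libraries were not shown to be paired: correlations of their deviations were 0.003, 0.136 and -0.009 in LDRG, 0.276, -0.098 and -0.093 in con/ko and 0.110, -0.022, -0.073 and 0.1 in CFA. With the replicate block edgeR called 1 gene for genotype untreated and 0 in CFA, and 0 of the 10 in both; Adra2c was 0.27 and Adra2a -0.48 in untreated libraries.

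Signs of uncalled differences that turned were these; the cause was not tested. CFA minus LDRG turned among cKO libraries for Adra2a (0.042) and Penk (-0.255) and among flox libraries for Cnr1 (-0.092) and Gabbr1 (-0.02). CFA minus con/ko turned with L-coded libraries for Adra2a (-0.305), Adra2c (0.007) and Oprk1 (-0.434), with F-coded ones for Penk (0.065) and among flox libraries for Adra2a (-0.193) and Oprk1 (-0.69). Con/ko minus LDRG turned for Adra2a with L-coded (0.169) and M-coded (0.199) libraries, for Oprk1 with L-coded (0.066) and flox libraries (0.176), and among cKO libraries for Oprd1 (-0.067) and Oprl1 (0.013). The untreated genotype difference turned in the LDRG set for Oprk1 (0.343), Oprl1 (-0.153) and Penk (0.088), in the con/ko set for Gabbr1 (0.008) and there with code letters for Gabbr2 (-0.048). Leaving out 1 library gave ranges across 0: CFA minus LDRG for Cnr1 -0.04 to 0.084, Gabbr1 -0.013 to 0.02, Oprl1 -0.006 to 0.309 and Penk -0.111 to 0.104; CFA minus con/ko for Adra2a -0.048 to 0.186 and Oprk1 -0.324 to 0.278; con/ko minus LDRG for Oprd1 -0.073 to 0.107; genotype in CFA for Adra2a -0.024 to 0.147, Gabbr2 -0.078 to 0.027 and Oprm1 -0.293 to 0.083; genotype untreated for Gabbr2 -0.002 to 0.071, Oprl1 -0.001 to 0.254 and Penk -0.657 to 0.116.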
